A study of Homo sapiens with 6 samples.

Results

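Named long noncoding RNAs and the host genes of small nucleolar RNAs (snoRNAs) were examined in SW480 cells with reduced expression of HPSE, the gene of heparanase, which cleaves heparan sulfate. The members were 35 listed symbols and the 28 symbols made of SNHG (small nucleolar RNA host gene) and a number, 63 in all. Of these, 29 had their own row among the 59192 features of the deposited expression table. Of the 29 rows, 25 had a mean of at least 10 normalized counts over the 6 libraries and were tested, 11 of them snoRNA hosts and 14 other long noncoding RNAs. In limma, with the filter on a mean of 10, no member passed an adjusted p of 0.05 in the comparison of the cell lines. The member nearest to that threshold was the snoRNA host SNHG19, which DESeq2 called and edgeR did not. DESeq2 called 3.53% of all features tested, against 0.802% in limma. SNHG19 was at 249.8 ± 29.3 (SD, n = 3) normalized counts in the knockdown line and 141 ± 13.6 in the control line. The sum of the 11 hosts was 19845 ± 531 and 19351 ± 834 normalized counts in the same order, and the 2 ranges overlapped.

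SW480 is a line from a human colorectal adenocarcinoma. All cells carried a lentiviral Cas9 with puromycin resistance and a second lentivirus with a guide RNA and EGFP. SW480-NC, labelled as control, received a control guide, and SW480-45 is the label of the HPSE knockdown line. It was taken as the line with the KD1 guide, which the study says targets exon 4 of HPSE and which is the knockdown line its text names for the RNA sequencing. Each line was sequenced in 3 independent experiments, and whether a line is a pool of cells or 1 clone is not stated. There was 1 line per guide, so p-values measure the spread between experiments and not between separately made lines.

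Most snoRNAs guide the chemical modification of ribosomal RNA and are cut from introns of longer transcripts. In most SNHG genes the spliced exons that remain do not code for a conserved protein, and many of these spliced RNAs are removed by nonsense-mediated decay when ribosomes reach them. SNHG32 is annotated as coding in GENCODE 29. Many host genes start with an oligopyrimidine tract, a run of C and T at the first transcribed bases that is also found in ribosomal protein genes and links translation to growth. The other members act in different ways: MALAT1 sits in nuclear speckles, NORAD binds Pumilio proteins, KCNQ1OT1 silences imprinted neighbours, and MIR17HG, MIR22HG, MIR210HG and DLEU2 are precursors of microRNAs.

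The libraries held between 33221323 and 39802365 reads on the features, recovered from the deposited values, and the 10 most abundant features took 7.85% to 8.75% of them. HPSE had 136, 172 and 146 normalized counts in SW480-45 and 269.9, 295 and 246 in SW480-NC, so that 56.1% of its RNA was left. The groups did not overlap, the log2 difference was −0.83 (SE 0.14) and the adjusted p was 0.0547 in limma. An exact two-sided permutation test gave p = 0.1, the smallest that 3 against 3 allows. Of the epithelial markers in the table, EPCAM, KRT8, KRT19 and VIL1 were abundant in every library, with the lowest value at 7576 normalized counts (VIL1). CDX2, the fifth marker with a row, was low, at 28.8 ± 8.77 normalized counts in SW480-45 and 34.0 ± 6.64 in SW480-NC (SD, n = 3). The fibroblast markers summed to 279.8 to 387 in SW480-45 and 229 to 263 in SW480-NC, with LUM at 0 in the control line and COL1A1 as their main part. The endothelial markers summed to 28 to 43.2 and 12.6 to 26.5, with CDH5 at 0 in 5 libraries. Whether other cells play a part in the results was not tested.

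The start regions of 6 hosts are shown first, because host genes are known for the letters at their start and because SNHG19, DANCR, SNHG10 and SNHG30 had groups that did not overlap. Each window runs from 30 bases before the RefSeq start to 50 bases after it on GRCh38.p14, in the direction of transcription. Capitals mark TATAA and runs of C followed by at least 4 T. The windows lie at chr16:2155309-2155388 (minus strand), chr6:85678684-85678763 (minus), chr1:173868996-173869075 (minus), chr4:52712364-52712443 (plus), chr14:95534823-95534902 (minus) and chr17:35568084-35568163 (plus).
SNHG19: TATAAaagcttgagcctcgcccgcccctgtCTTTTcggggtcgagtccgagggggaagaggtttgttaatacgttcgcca
SNHG5: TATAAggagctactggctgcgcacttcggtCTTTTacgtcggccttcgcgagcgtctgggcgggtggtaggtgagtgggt
GAS5: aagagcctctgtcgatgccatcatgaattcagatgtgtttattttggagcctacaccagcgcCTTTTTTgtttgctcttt
DANCR: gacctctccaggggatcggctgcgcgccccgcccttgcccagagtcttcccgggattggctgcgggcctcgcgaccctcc
SNHG10: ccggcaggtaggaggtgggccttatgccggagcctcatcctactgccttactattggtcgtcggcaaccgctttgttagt
SNHG30: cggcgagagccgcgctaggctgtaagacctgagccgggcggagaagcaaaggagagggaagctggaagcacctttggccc

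In SNHG19 and SNHG5 the CTTTT began at the first transcribed base given by RefSeq, with a TATAA 30 bases before it. The GENCODE 29 annotation starts SNHG19 at the same base and SNHG5 15 bases further upstream. In GAS5 the CTTTT began at base 33, and the start of this gene in the GENCODE 29 annotation lay 163 bases further downstream. DANCR, SNHG10 and SNHG30 had no CTTTT in the window. Promoters were found for 10 of the 11 tested hosts and for 11 of the 14 other members, which have 13 promoters. CTTTT, read in the direction of transcription, was in the window of 6 of 10 hosts (SNHG19, SNHG5, GAS5, SNHG16, SNHG26 and SNHG29). It was in 1 of the 13 promoters of the other members (FTX). Among all 35116 RefSeq promoters 8.86% held it. These shares count a CTTTT anywhere in the window and not only at the first transcribed bases. Its position in SNHG16, SNHG26 and SNHG29 is not given here. The reverse complement AAAAG was in 1 host window and 1 window of the other members, against 8.66% of all. TATAA, sought from 40 to 15 bases before the start, was in 2 host promoters, 2 promoters of the other members and 3.91% of all. A match to these letters is a description of the sequence and does not show binding. The 6 hosts with a CTTTT had log2 differences of 0.81 (SNHG19), 0.13 (SNHG5), 0.06 (GAS5), −0.01 (SNHG29), −0.05 (SNHG16) and −0.14 (SNHG26). None of them had an adjusted p under 0.05 in limma, and a link between these letters and the differences was not tested.

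The microRNAs of the precursor members are shown because the level of a precursor is often read as that of its product, which these libraries did not measure. Capitals mark the seed, bases 2 to 8 of the mature RNA, which pairs with targets. The first pair comes from DLEU2 and shares a seed, and the next ones come from MIR22HG and MIR210HG.
hsa-miR-15a-5p: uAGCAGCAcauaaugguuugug
hsa-miR-16-5p: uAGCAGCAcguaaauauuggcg
hsa-miR-22-3p: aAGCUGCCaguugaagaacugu
hsa-miR-210-3p: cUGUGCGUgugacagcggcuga

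MIR17HG carries 6 microRNA genes, and 4 of their products fall into 2 pairs with a shared seed.
hsa-miR-17-5p: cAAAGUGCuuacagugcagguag
hsa-miR-20a-5p: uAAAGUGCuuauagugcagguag
hsa-miR-19a-3p: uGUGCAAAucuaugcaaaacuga
hsa-miR-19b-3p: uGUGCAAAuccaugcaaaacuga

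Of the 63 symbols, 34 had no row of their own, 20 of 32 hosts and 14 of 31 other members. The hosts without a row were SNHG1, SNHG3, SNHG4, SNHG7, SNHG8, SNHG9, SNHG11, SNHG12, SNHG14, SNHG15, SNHG17, SNHG20, SNHG21, SNHG22, SNHG25, SNHG27, SNHG28, SNHG31, SNHG32 and ZFAS1. The other members without one were CASC15, CCAT1, CYTOR, FENDRR, HCP5, HOTTIP, HOXA11-AS, JPX, LUCAT1, MEG3, MIAT, NEAT1, PVT1 and TUG1. The GENCODE 29 annotation holds 33 of these 34 genes. A missing row does not mean that the RNA was absent, since the table also holds 33265 loci named only by a transcript assembler, and those were not assigned to genes here. A row of its own was found for 46.0% of the symbols, for 40.8% of all annotated long noncoding genes and for 62.6% of coding genes.

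Below a mean of 10 were TINCR at 6.34, H19 at 1.61, CCAT2 at 1.47 and SNHG18 at 0.18 normalized counts. CCAT2, a transcript from the region upstream of MYC, had 4, 3 and 2 reads in SW480-45 and 0 in each SW480-NC library, where a count of 0 allows up to 3 reads. H19, an imprinted RNA of fetal tissue, had 10 reads in all, found in 1 library of each line. SNHG18 had 1 read in all, and TINCR, first known from skin differentiation, had 38. These 4 were too low to compare.

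Per kb of annotated exon, the tested hosts had means between 51.6 normalized counts (SNHG26) and 1805 (SNHG29), with a median of 572. The other members lay between 4.52 (UCA1) and 1784 (NORAD), with a median of 40.7. The exon length joins all annotated transcripts of a gene, which lowers the value of genes with many of them. For LINC00511 it was 27605 bases against 3766 in the longest transcript, and for the host GAS5 3631 against 1698. How far this shapes the contrast was not tested. SNHG29, SNHG16 and GAS5 supplied 34.6%, 22.5% and 20.2% of the summed normalized counts of the hosts. The plot of levels shows the values in each library.

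**Figure D1:**
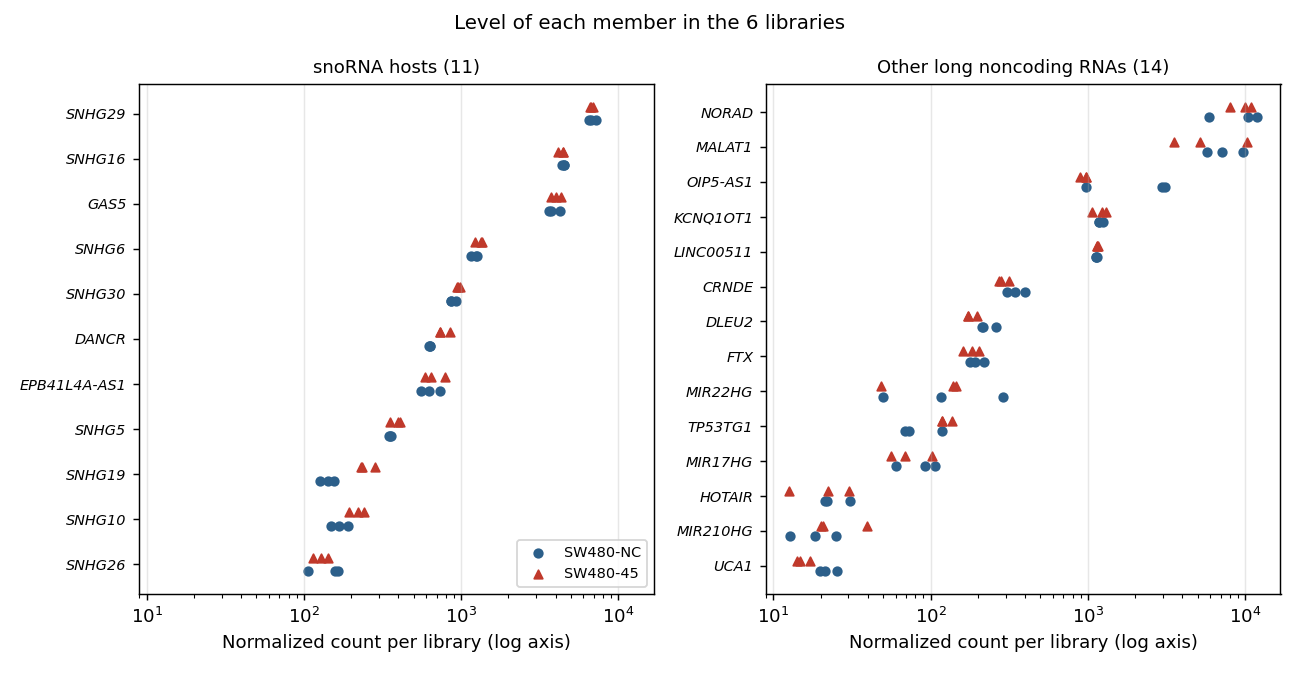
Normalized counts (log axis) of the 11 tested snoRNA hosts (left) and 14 other long noncoding RNAs (right) in each of 3 SW480-NC (circles) and 3 SW480-45 (triangles) libraries. Points of the 2 lines lie close together for most hosts, while SNHG19 is set apart and OIP5-AS1, MALAT1, NORAD and MIR22HG are spread widely within a line.

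SNHG19 had the largest difference of the tested hosts. It is a short gene (ENSG00000260260, chr16:2154797-2155358, minus strand, GRCh38) with 342 bases of annotated exon, and its span holds SNORD60 and another annotated snoRNA gene. It had 283.6, 232.1 and 233.6 normalized counts in SW480-45 and 127.6, 142 and 154.8 in SW480-NC. All 3 knockdown libraries were above all 3 control libraries. The log2 difference was 0.81 (95% interval 0.48 to 1.15, SE 0.14), with an unadjusted p of 0.000572 and an adjusted p of 0.0611 in limma. On the recovered reads its adjusted p was 0.0691 in edgeR and 0.00182 in DESeq2. Leaving out each library in turn gave log2 differences of 0.72 to 0.88 and adjusted p-values of 0.0800 to 0.218 in limma.

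Over all 21703 features tested, 0.802% had an adjusted p under 0.05 in limma (0.332% higher and 0.47% lower in SW480-45), against 0 of the 25 members. edgeR called 0.627% of features and 0 members, and DESeq2 called 3.53% and 1 member, SNHG19. At an unadjusted p under 0.05 there were 6 members, 24% of 25, against 16.2% of all features. The 6 were SNHG19, DANCR, SNHG10 and TP53TG1, which were higher in SW480-45 (8.1% of all features), and OIP5-AS1 and DLEU2, which were lower (8.15%). The groups did not overlap for 8 members (32%), these 6 with SNHG30 and UCA1, against 23.4% of all features. The counts are small, the shares were not tested against each other, and nothing particular to the members is read from them.

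DANCR, a host of SNORA26 that is known for holding progenitor cells undifferentiated, had 736, 853 and 734 normalized counts in SW480-45 and 623, 636 and 638 in SW480-NC. Its lowest knockdown library was above its highest control library, and the 3 control libraries were close together. The log2 difference was 0.29 (SE 0.10, adjusted p = 0.219 in limma). SNHG10, a host of SCARNA13, had 242.5, 220.4 and 194 normalized counts against 190.4, 149.7 and 168. The lowest knockdown library was just above the highest control library. Its log2 difference was 0.37 (SE 0.15, adjusted p = 0.282 in limma). Of its annotated exon bases 20.1% overlap GLRX5 on the opposite strand, and the library kit is not stated to keep strand, so reads of such partners cannot be told apart. SNHG30, a host of SNORD7, had 943, 954 and 985 normalized counts against 867, 865 and 928. These groups also did not overlap, but the log2 difference was small at 0.12 (adjusted p = 0.527 in limma).

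The 3 hosts with the highest counts had log2 differences close to 0. SNHG29, a host of SNORD49A, SNORD49B and SNORD65, had 6738, 6584 and 6960.2 normalized counts in SW480-45 and 6506, 6695 and 7219 in SW480-NC. Its log2 difference was −0.01 with a 95% interval of −0.16 to 0.14 (adjusted p = 0.963 in limma). SNHG16, a host of the SNORD1 family, had 4436, 4139.9 and 4441 against 4375.5, 4540.1 and 4529 normalized counts. Its log2 difference was −0.05 (−0.20 to 0.10, adjusted p = 0.755 in limma), and 30.6% of its annotated exon bases overlap AC015802.6 on the opposite strand. GAS5, the growth arrest transcript whose spliced RNA is a known target of nonsense-mediated decay, had 3736, 4046 and 4349.7 against 3607, 3734 and 4283 normalized counts. Its log2 difference was 0.06 (−0.15 to 0.28, adjusted p = 0.778 in limma). The groups overlapped for all 3. For SNHG29 the interval leaves room for a difference of at most 0.16 on the log2 scale in either direction.

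The other tested hosts were SNHG5 at a log2 difference of 0.13, SNHG6 at 0.10, EPB41L4A-AS1 at 0.07 and SNHG26 at −0.14, all with overlapping groups and adjusted p-values of 0.578 to 0.854 in limma. Their mean levels were 369.6, 1266, 657 and 135.6 normalized counts. Of the annotated exon bases of EPB41L4A-AS1, 49.6% overlap the coding gene EPB41L4A on the opposite strand, and of those of SNHG6 29.3% overlap MCMDC2. EPB41L4A-AS1 was below 0 without replicate 3 of SW480-45 (−0.049) and without replicate 1 of SW480-NC (−0.024).

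**Figure D2:**
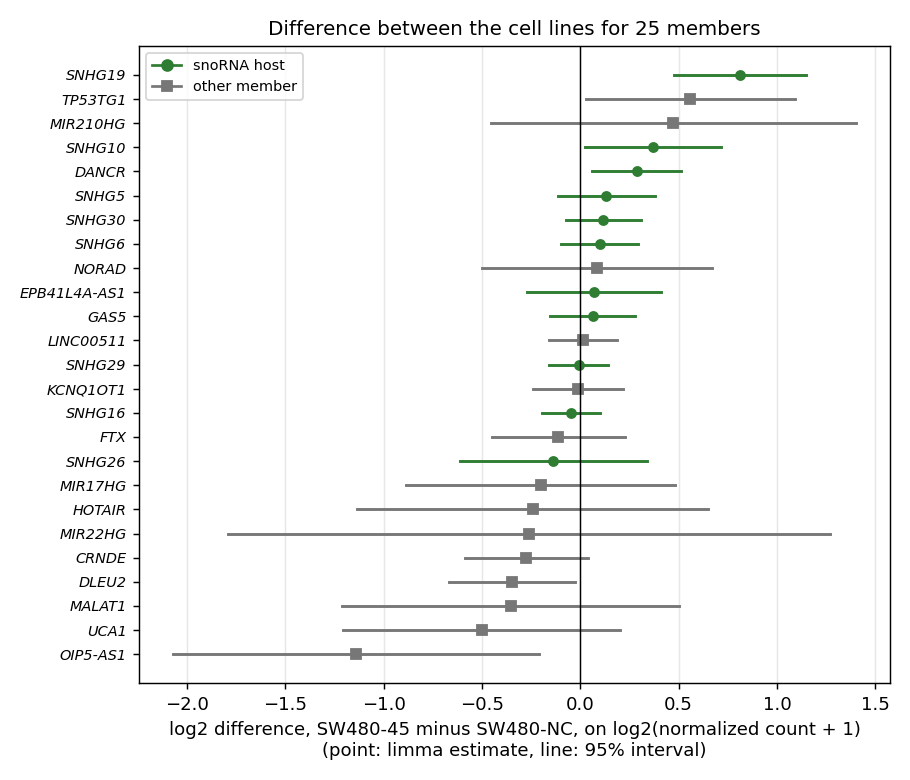
Log2 difference of SW480-45 minus SW480-NC for the 25 tested members on log2(normalized count + 1), with points for limma estimates and lines for 95% intervals (green circles, snoRNA hosts; grey squares, other members). SNHG19 at 0.81 and OIP5-AS1 at −1.14 are the extremes, and most intervals cross 0.

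OIP5-AS1, known as cyrano and for binding miR-7, had the largest difference among the other members, and whether its adjusted p passed the threshold rested on 1 control library. It lies at chr15:41283990-41309737 on the plus strand of GRCh38. It had 969, 892 and 970.4 normalized counts in SW480-45 and 981, 3089.5 and 2960.4 in SW480-NC. Replicate 1 of SW480-NC was at the level of the knockdown libraries, and the other 2 control libraries were far above it. The log2 difference was −1.14 (−2.07 to −0.21, SE 0.40, adjusted p = 0.231 in limma). Without that library it was −1.68 (adjusted p = 0.00421 in limma), and over all libraries left out in turn the log2 difference ran from −1.68 to −0.85 and the adjusted p up to 0.456. OIP5, the coding gene on the opposite strand, had 351, 271 and 324 normalized counts against 357, 336 and 334, and its groups overlapped.

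DLEU2, the precursor of miR-15a and miR-16 in a region deleted in chronic lymphocytic leukaemia, had 172, 197 and 172 normalized counts in SW480-45 and 262, 212 and 216 in SW480-NC. All knockdown libraries were below all control libraries. The log2 difference was −0.35 (SE 0.14, adjusted p = 0.279 in limma). TP53TG1, a target of p53, had 137, 118 and 117.8 normalized counts against 69.0, 72.4 and 117.7. The groups were separated only by the narrow gap between the last library of each line. Its log2 difference was 0.56 (SE 0.23, adjusted p = 0.287 in limma).

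**Figure D3:**
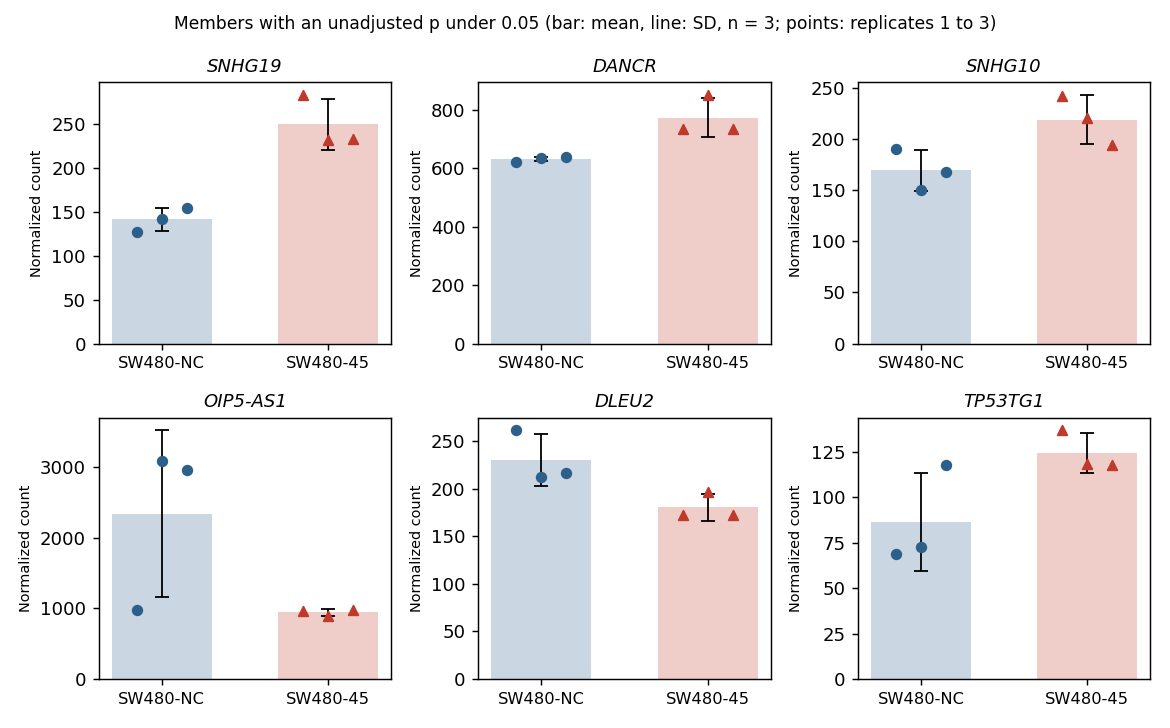
Normalized counts of the 6 members with an unadjusted p under 0.05 in limma, by cell line (bars, means; lines, SD, n = 3; points, libraries of replicates 1 to 3 from left to right). The libraries of the lines are apart for all 6, narrowly for TP53TG1, and replicate 1 of SW480-NC lies beside the knockdown libraries for OIP5-AS1.

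MALAT1 and NORAD, which have the most counts of the other members, differed more within a line than between the lines. MALAT1 had 3548, 10364 and 5201 normalized counts in SW480-45 and 5742, 7154.5 and 9728.5 in SW480-NC. Its lowest and highest libraries were both knockdown libraries, and the log2 difference was −0.35 (−1.21 to 0.50, adjusted p = 0.672 in limma). It was −0.0046 without replicate 1 of SW480-45 and −0.78 without replicate 2 of that line (adjusted p = 0.332 in limma). NORAD had 10942, 8023 and 9949 normalized counts against 11948, 10413 and 5887. Its lowest and highest libraries were both control libraries, and the log2 difference was 0.08 (−0.50 to 0.67, adjusted p = 0.898 in limma). The letters of the Pumilio element, TGTANATA, occurred 15 times in the 5339 bases of the NORAD transcript, or 2.81 per kb. Among the longest transcripts of the other 24 tested members, HOTAIR had the highest density at 1.24 per kb.

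LINC00511 had the smallest SD within lines of the tested members. It had 1137, 1137 and 1157 normalized counts in SW480-45 and 1137, 1135 and 1128 in SW480-NC, with a log2 difference of 0.01 (adjusted p = 0.951 in limma). Its SD within lines was 0.011 log2 units, and 99.98% of all features tested had a larger one. At its 1064 to 1259 reads per library, counting error alone would be expected to give a larger SD. The closeness is therefore not read as a trait of the gene. KCNQ1OT1, the antisense RNA of the imprinted KCNQ1 locus, had 1064, 1299.6 and 1225 normalized counts against 1252, 1174 and 1178. The groups overlapped and the log2 difference was −0.01 (−0.24 to 0.22, adjusted p = 0.969 in limma).

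Of the microRNA precursors, FTX had 183, 159.9 and 203 normalized counts in SW480-45 and 179, 217 and 193 in SW480-NC (log2 difference −0.11, adjusted p = 0.744 in limma). FTX belongs to the X inactivation centre, and 41.9% of its annotated exon bases overlap genes on the opposite strand, mostly JPX. MIR22HG had 48.5, 139 and 145 normalized counts against 291, 117 and 49.8. Both lines held a library near 50 and libraries above 110, and the log2 difference was −0.26 (−1.79 to 1.27, adjusted p = 0.877 in limma). Its SD within lines was 1.09 log2 units, and 3.46% of all features tested had a larger one. MIR17HG, the precursor of the miR-17-92 cluster and a known MYC target, ran from 55.9 to 101.7 normalized counts in SW480-45 and from 60.4 to 107 in SW480-NC. MIR210HG, known for its response to low oxygen, ran from 20 to 39.6 and from 12.7 to 25.1.

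HOTAIR, from the HOXC cluster, had 22.1, 12.6 and 30.1 normalized counts in SW480-45 and 22, 30.9 and 21.2 in SW480-NC (log2 difference −0.24, adjusted p = 0.796 in limma). UCA1, first described in urothelial cancer, had 14.8, 17.2 and 14.1 against 19.9, 21.2 and 25.4. These groups did not overlap, but 113 reads in all lay behind the 6 values, and the log2 difference was −0.50 (−1.21 to 0.20, adjusted p = 0.457 in limma). CRNDE, named for its expression in colorectal neoplasia, ran from 273.6 to 316 normalized counts in SW480-45 and from 309 to 401 in SW480-NC (log2 difference −0.27, adjusted p = 0.361 in limma).

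As a class, the hosts had a median log2 difference of 0.10, with 8 of 11 above 0, and the other members had −0.22, with 4 of 14 above 0. Over all features tested the median was −0.00 and 49.3% were above 0. The difference between the class medians was 0.32. It ranged from 0.110 without replicate 1 of SW480-45 to 0.417 without replicate 3 of SW480-NC, and it was 0.167 without replicate 2 of SW480-NC. It was 0.31 when hosts were taken as the 10 tested members with a snoRNA matched inside their span on the same strand. That class leaves out GAS5, a listed host in which the annotation match found no snoRNA gene. In the 11 hosts, all 4 genes with groups that did not overlap were higher in SW480-45 (11.4% of all features), and in the other members 1 was higher and 3 were lower (12%). In single libraries, the median deviation of the hosts from their own means, minus that of the other members, was 0.16, 0.11 and 0.020 in SW480-45 and −0.18, −0.21 and −0.032 in SW480-NC. The lines did not overlap in this measure, but replicate 3 of each line lay close to 0. The contrast was described and not tested, because the members were chosen with results of these data known.

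In summed normalized counts the hosts reached 19641, 19446 and 20447 in SW480-45 and 18575, 19245 and 20233 in SW480-NC. The groups overlapped. The other members summed to 18630, 22723 and 19604 against 22419, 24109 and 21887, again with overlap, and MALAT1 and NORAD made up most of each sum. Without these 2 the sums were 4139.7, 4336 and 4454 against 4730.1, 6541 and 6272, and OIP5-AS1 alone supplied most of that gap.

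The classes also differed in how far libraries of a line lay apart. The median SD within lines was 0.088 log2 units for hosts and 0.363 for the other members, against 0.232 for all features tested and 0.146 for those with a mean of at least 50. Of the hosts, 1 of 11 was above the median of all features, SNHG26, and of the other members 8 of 14 were. Of these 8, 3 had a mean under 100 normalized counts (HOTAIR, MIR210HG and MIR17HG), while MALAT1, NORAD, OIP5-AS1, MIR22HG and TP53TG1 did not. The classes were not matched for level, and how far level shapes this contrast was not tested.

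**Figure D4:**
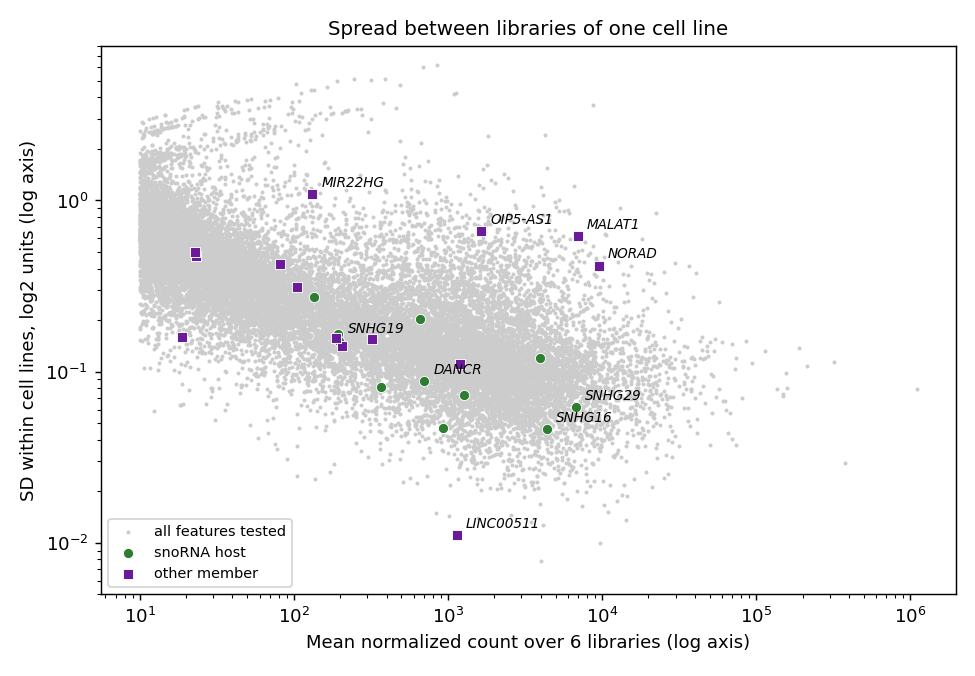
SD within cell lines (log2 units, log axis) against the mean normalized count over 6 libraries (log axis) for all 21703 features tested (grey), snoRNA hosts (green circles) and other members (purple squares). MALAT1, NORAD, OIP5-AS1 and MIR22HG lie high for their level, and LINC00511 lies lowest of the members at 0.011.

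Few of the snoRNAs themselves had a row, and those that did had few counts. The GENCODE 29 match found 15 snoRNA or small Cajal body RNA genes inside the 11 tested hosts, and none of them in GAS5. The count may therefore be too low. Of the 15, SNORA26 (DANCR), SNORA13 (EPB41L4A-AS1) and SCARNA13 (SNHG10) had their own row. SNORA26 had 13.7, 12.6 and 15.1 normalized counts in SW480-45 and 14.6, 11.6 and 23.3 in SW480-NC. SNORA13 had 12.7, 12.6 and 22.6 against 20.9, 31.9 and 24.4, and SCARNA13 had 3.16, 8.13 and 21.7 against 3.14, 8.69 and 9.54. The lines overlapped for all 3. The other snoRNA genes of these hosts had no value, and whether such counts follow the mature snoRNAs was not tested.

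Other genes of the same biology were read from the same test, and none of them had an adjusted p under 0.05 in limma. Of 13 core and assembly proteins of snoRNA particles, 7 had a row, and their log2 differences ran from −0.22 (SHQ1) to 0.19 (NOP10) with a median of 0.04. FBL, the methyltransferase of the C/D particles, was at 0.02. Of 10 factors of nonsense-mediated decay, 9 had a row, with a median of −0.03 and a range of −0.22 (SMG1) to 0.24 (UPF3A). SMG1, the kinase that acts on UPF1, had 9262, 9579 and 10014 normalized counts in SW480-45 and 11287, 11401 and 10988 in SW480-NC (unadjusted p = 0.00491, adjusted p = 0.133 in limma). UPF1 itself was at −0.10 (adjusted p = 0.478 in limma).

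Coding genes that also host snoRNAs, leaving out ribosomal proteins, had a row for 6 of 12, with 4 of 6 below 0 and a median of −0.05. HSPA8, a chaperone of the HSP70 family, had 54226, 57331 and 52922 normalized counts in SW480-45 and 65148, 64626 and 71011 in SW480-NC. All knockdown libraries were below all control libraries, with a log2 difference of −0.29 (adjusted p = 0.0814 in limma). NCL, the gene of nucleolin, was at −0.23 (adjusted p = 0.124 in limma), also with groups that did not overlap. RACK1, a protein of the small ribosomal subunit, was highest of the 6 at 0.18 (adjusted p = 0.340 in limma).

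Of 11 proteins of paraspeckles and nuclear speckles, 8 had a row, from −0.10 (SFPQ) to 0.17 (SRRM2), a scaffold of the speckles where MALAT1 lies. None had an unadjusted p under 0.05. Of 14 coding neighbours of members, 10 had a row and 7 were tested, with a median of −0.13 and a range of −0.25 (IRX5, the neighbour of CRNDE) to 0.66 (EPB41L4A). KCNQ1, a potassium channel gene, had 283.6, 311.6 and 271 normalized counts in SW480-45 and 175.7, 172 and 213 in SW480-NC. Its groups did not overlap, and the log2 difference was 0.63 (SE 0.13, adjusted p = 0.0978 in limma). Its antisense KCNQ1OT1 was at −0.01. KCNQ1OT1 has 91667 annotated exon bases on the opposite strand, and where these genes overlap their reads cannot be told apart. EPB41L4A had 187.7, 132.8 and 95.2 against 71.1, 92.7 and 89.1 (adjusted p = 0.269 in limma), and EPB41L4A-AS1 was at 0.07. These genes share 1659 exon bases on opposite strands, where their reads cannot be told apart. MYC, beside CCAT2, had 1979, 8721 and 7177 normalized counts in SW480-45 and 11556, 2145 and 7767 in SW480-NC, so that each line held 1 library far below its others.

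Of the epithelial markers, KRT8 was at −0.21 (unadjusted p = 0.00618, adjusted p = 0.141 in limma) and VIL1 at 0.20 (unadjusted p = 0.0207, adjusted p = 0.225), with CDX2 lowest of the 5 at −0.26. Of the fibroblast markers, COL1A1 was at 0.48 (unadjusted p = 0.0458, adjusted p = 0.297 in limma) and PDGFRB at 0.56, and of the endothelial markers PECAM1 was at 0.67 and VWF at 1.65, both from means under 20 normalized counts.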

How the data were processed

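RNA of 3 SW480-45 and 3 SW480-NC libraries was made with the NEBNext Ultra kit and sequenced on an Illumina HiSeq instrument. The submitters' processing notes name bcl2fastq, HISAT2, DESeq2 and GRCh38 without versions, and the study's text names Cuffdiff. The counting tool and the annotation are not given in the sources used here. The deposited signal per feature is a normalized count, a gene count that the authors divided by 1 size factor per library. The reads were recovered by dividing each library by its smallest step, and 100% of them came out whole within a tolerance of 0.001.

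Of 59192 features, 25927 had an Ensembl identifier, and symbols were found for 25595. Members were matched by identifier. Positions and exons come from GENCODE 29, and start regions and microRNAs from RefSeq on GRCh38.p14. The members and gene lists were chosen with earlier results of these data known.

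Log2 values of the normalized count plus 1 were fitted with limma (version 3.58.1, R 4.3.3, trended variance) for the 21703 features whose mean was 10 or more, with Benjamini-Hochberg adjustment over them. Fold changes on this scale understate those of low genes. Values are given in full for HPSE, for members with an adjusted or unadjusted p under 0.05 and for the 3 most abundant members of each class. The alternatives were a pseudocount of 5, no filter, a mean of at least 50, TMM scaling, quantile normalization, no trend, a replicate block, Ensembl identifiers only, hosts by annotated snoRNA, each library left out, and edgeR 4.0.16 and DESeq2 1.42.0 on the recovered reads. The main limma fit and the edgeR and DESeq2 fits were tested on simulated data, and the other steps were not. Counting limits cover counting error only. The result of 1 marker list is not reported here.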

Additional observations from a re-analysis of the deposited data

How the results depend on the processing

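With DESeq2 on the recovered reads 767 features passed instead of 174. Without the intensity trend 11 passed and with the replicate block 12, and 29 to 93 passed with 1 library left out. Deviations of same-numbered libraries from their group means correlated at 0.0025, −0.020 and 0.0074, so no pairing by replicate number was seen. Whether same-numbered libraries were made together is not stated. With the block 4 of 25 members had an unadjusted p under 0.05 in limma. The count of members past the adjusted threshold was 1 with a mean of at least 50 (SNHG19, 0.81, adjusted p = 0.0486 in limma), 1 with DESeq2 (SNHG19, 0.82), and 0 to 1 with a library left out, the 1 being OIP5-AS1 without replicate 1 of SW480-NC. At an unadjusted p under 0.05 there were 3 members with DESeq2 and 3 to 5 with a library left out. HPSE was at −0.83 and passed with no filter (adjusted p = 0.0451 in limma), a mean of at least 50 (0.0460), Ensembl identifiers only (0.0462) and DESeq2 (−0.83, 0.000924). In limma it did not pass with a pseudocount of 5 (0.0569), TMM scaling (0.0593), quantile normalization (0.0507), no trend (0.1265) or the replicate block (0.169). Nor did it pass in edgeR (0.0664) or with any library left out (0.0777 to 0.199 in limma). Among the gene lists 1 gene passed with quantile normalization (HSPA8) and 1 with DESeq2 (KCNQ1).

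Quantile normalization turned the sign of SNHG29 (0.0575), SNHG16 (0.00616) and KCNQ1OT1 (0.0103), and edgeR that of KCNQ1OT1 (0.000657), all values near 0. With 1 library left out, the log2 differences ran from −0.51 to 0.083 for HOTAIR, from −0.073 to 0.071 for KCNQ1OT1, from −0.88 to 0.38 for MIR22HG, from −0.22 to 0.29 for NORAD, from −0.049 to 0.17 for EPB41L4A-AS1 and from −0.041 to 0.034 for SNHG29, so these signs were not settled. The gap between the class medians ran from 0.110 to 0.417. The causes of these shifts were not tested. UCA1, HOTAIR and MIR210HG rest on 113 to 140 reads each over the 6 libraries. MIR22HG, with 800 reads, and OIP5-AS1, with 9866, had intervals as wide or wider.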

Other observations

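Some snoRNA genes had their own row although their host had none. SNORA73B, inside SNHG3, had 81.2, 78.6 and 86.7 normalized counts in SW480-45 and 70.1, 73.4 and 80.6 in SW480-NC, and the highest control library was between the knockdown libraries. Inside SNHG17, SNORA71A had 17.9, 20.8 and 23.6 against 14.6, 17.4 and 13.8, with all knockdown libraries above the control libraries, while SNORA71B, SNORA71C and SNORA71D overlapped between the lines. These snoRNAs are close copies of one another, so the value of each is uncertain. SNORA74A, inside SNHG4, had 8.44, 11.7 and 11.3 against 13.6, 8.69 and 24.4.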
